A study of Rattus norvegicus with 4 samples.

Results

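The genes described here encode the sodium pump's beta subunits, the proton pump of the distal colon and the FXYD proteins that regulate the sodium pump. They were chosen by gene symbol: Atp12a, Atp1b1, Atp1b2, Atp1b3, Fxyd1, Fxyd2, Fxyd3, Fxyd4 and Fxyd5. All 9 had a row of their own among the 13215 genes named on the array, and each had 1 row, so that no choice between rows was needed. Expression was measured in surface colonocytes, the absorptive cells of the distal colon that face the lumen, from 4 Wistar rats aged 12 weeks on Affymetrix exon arrays, 1 array per rat. Every rat, vehicle rats included, had lost both adrenal glands 4 days earlier and drank 0.9% NaCl, so that the vehicle group is a hormone-depleted state and not an intact animal. The 2 aldosterone rats received a subcutaneous injection of 50 µg of aldosterone per 100 g of body weight and a minipump delivering 10 µg/kg per hour, for 2 h. The 2 vehicle rats received the vehicle by the same routes, with polyethylene glycol 300 in the pump. Cells were then shaken off the inverted colon for 40 min, with 100 nM aldosterone in the solution for the treated rats and vehicle for the others.

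The sodium pump sits in the basolateral membrane of colonocytes and drives sodium absorption by exporting sodium in exchange for potassium. It consists of a catalytic alpha subunit and a beta subunit, a glycoprotein that the pump needs to fold and to reach the membrane. FXYD proteins are small membrane proteins named after a conserved sequence motif, and they bind the pump and alter its affinity for sodium or potassium. Atp12a encodes the catalytic subunit of the colonic H,K-ATPase, an apical pump that takes up potassium in exchange for protons and is known as a target of aldosterone and of dietary sodium and potassium. Fxyd4 encodes CHIF, the corticosteroid hormone-induced factor, a FXYD protein of the distal colon and the kidney collecting duct.

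Fxyd4 had the largest difference of the 9 genes, and those of the pump subunits were small. Levels are log2 values, given per rat in the order replicate 1 and replicate 2. Fxyd4 (row 7268847) read 8.08 and 8.56 in vehicle rats and 9.79 and 10.91 in aldosterone rats. There was no overlap between the groups, and the lowest aldosterone rat lay 1.23 above the highest vehicle rat. Both groups were spread widely, with a mean ± SD of 8.32 ± 0.34 and 10.35 ± 0.79 (n = 2 each). The difference was 2.03 on the log2 scale, 4.09-fold, with a 95% interval from 0.83 to 3.23. In limma with a constant prior variance it did not pass the threshold, an adjusted p of 0.05 over all 19403 rows (unadjusted p = 0.00898, adjusted p = 0.811). With a prior variance that follows the expression level it came close to the threshold (adjusted p = 0.0525). In simulated data, however, that prior made more false calls than its threshold allows. With rows of a mean below 4 left out, limma with that prior gave Fxyd4 an adjusted p = 0.132.

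**Figure D1:**
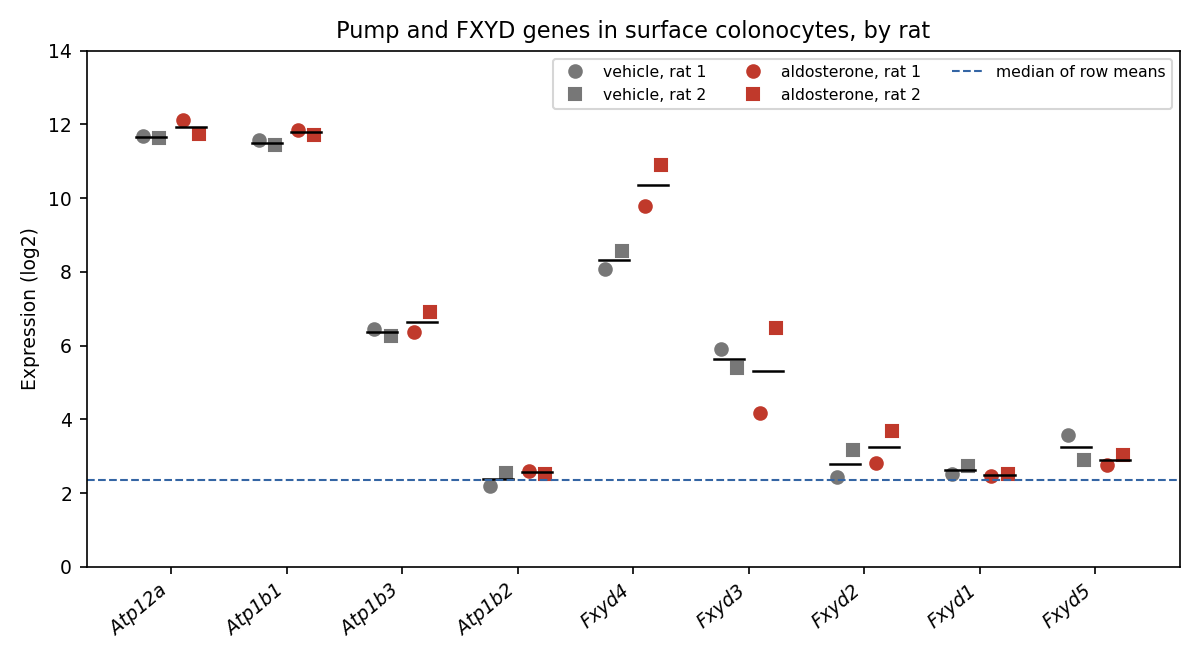
Log2 expression of the 9 genes in each rat, with grey symbols for vehicle, red symbols for aldosterone, circles for replicate 1, squares for replicate 2 and black bars for group means. The dashed line is the median of all row means, 2.35. Fxyd4 separates the groups most clearly, and Atp1b2 and Fxyd1 lie close to the dashed line.

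None of the 9 genes passed in limma, where 0% of all rows did. At an unadjusted p under 0.05, 1 of the 9 stood higher (Fxyd4) and 0 lower, against 2.19% of all rows higher and 2.34% lower. The fit with the level-dependent prior called 21 rows (0.108%) and 0 of the 9 genes. The groups did not overlap in 3 of the 9 genes with aldosterone higher (Fxyd4, Atp1b1 and Atp12a), against 16.7% of all rows. In 1 gene, Fxyd1, they did not overlap with aldosterone lower, against 11.1% of all rows. With 2 rats against 2 an exact permutation test, two-sided, cannot give a p below 0.333, which is the value for these 4 genes. The median difference of the 9 genes was 0.28, and that of all rows was 0.024. Without aldosterone replicate 2 the median of the 9 genes was 0.024, and without vehicle replicate 1 it was 0.091. The difference was positive in 6 genes and negative in 3, while it was positive in 58.3% and negative in 41.7% of all rows. With each array centred on its median the split over all rows turned to 38.6% positive and 61.4% negative, and that at an unadjusted p under 0.05 became 1.45% higher and 2.62% lower. After this centring Fxyd4 was the only gene of the 9 whose groups did not overlap with aldosterone higher (9.61% of all rows), since Atp1b1 and Atp12a then overlapped, and Fxyd1 was the only one lower (17.2%).

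The promoter of Fxyd4 is shown because this gene had the largest difference, and a promoter of Atp12a because it alone among those of the 9 genes held the half-site of the corticosteroid response element. That half-site reads AGAACA, or TGTTCT on the other strand. The sequences are RefSeq windows of the GRCr8 assembly, from 250 bases before to 50 after an annotated start, read 5′ to 3′ on the gene's strand, with the half-site in capitals. The Fxyd4 window lies at chr4:152785996-152786295 on the minus strand, and the second of the 2 windows of Atp12a at chr15:34559495-34559794 on the plus strand.
Fxyd4: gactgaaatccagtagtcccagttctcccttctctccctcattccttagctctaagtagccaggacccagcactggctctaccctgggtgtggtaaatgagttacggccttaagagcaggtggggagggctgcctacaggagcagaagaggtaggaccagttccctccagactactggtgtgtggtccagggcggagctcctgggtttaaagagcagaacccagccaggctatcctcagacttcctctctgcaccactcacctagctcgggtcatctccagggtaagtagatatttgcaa
Atp12a: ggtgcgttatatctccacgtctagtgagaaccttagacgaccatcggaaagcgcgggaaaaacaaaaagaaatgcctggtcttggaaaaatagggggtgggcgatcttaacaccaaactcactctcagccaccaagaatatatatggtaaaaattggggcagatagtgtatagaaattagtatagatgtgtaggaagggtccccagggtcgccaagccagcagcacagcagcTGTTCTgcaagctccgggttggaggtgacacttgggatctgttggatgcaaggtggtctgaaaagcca
Windows were found for 6 of the 9 genes (Atp12a, Atp1b2, Atp1b3, Fxyd1, Fxyd4 and Fxyd5), 8 windows in all. The half-site was found in 1 of these 8 windows and in 20.7% of the 33469 windows of the table. In Atp12a it begins 18 bases before the start. The Fxyd4 window holds no AGAACA or TGTTCT, and its GC content was 54.7% with 3 CpG dinucleotides, against medians of 51.7% and 7 over the table. The palindromic glucocorticoid response element, in which the half-site faces its own inverted copy across 3 bases, was also searched and contains the half-site. It was in 0 of the 8 windows and in 0.0149% of all windows. A match is a string of letters in this window only and shows neither binding nor a regulatory site, and its absence says nothing about elements elsewhere.

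Atp12a, the colonic proton pump, was strongly expressed without hormone and stood slightly higher with it. Its row (7132116) read 11.69 and 11.63 in vehicle rats and 12.13 and 11.75 in aldosterone rats. The groups were separate, but the gap between them was only 0.0605, less than the 0.387 between the aldosterone rats. Group means were 11.66 ± 0.043 and 11.94 ± 0.27 (n = 2 each), a difference of 0.28 (1.22-fold, interval -0.17 to 0.74, adjusted p = 1.00 in limma). Its difference was 0.091 without aldosterone replicate 1 and 0.48 without aldosterone replicate 2.

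Atp1b1, the main beta subunit of epithelial sodium pumps and known as a partner of the colonic proton pump, varied little between rats of a group. Its row (7113385) read 11.58 and 11.43 in vehicle rats and 11.86 and 11.72 in aldosterone rats. The groups were again separate, and rats of 1 group differed by no more than 0.147. The difference was 0.28 (1.22-fold), with an interval from -0.043 to 0.61 and an adjusted p = 1.00 in limma (unadjusted p = 0.0741). An increase above 1.53-fold lay outside this interval, but the bound depends on the prior variance taken from all rows. With rows of a mean below 4 left out, limma gave the same difference an unadjusted p = 0.309. The interval is wider there, so 1.53-fold is not a firm limit. The fold of Atp1b1 equalled that of Atp12a to the digits given, with a narrower interval.

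Atp1b3, another beta subunit with a broad tissue distribution, was measured at a moderate level. Its row (7349069) read 6.45 and 6.26 in vehicle rats and 6.37 and 6.92 in aldosterone rats. The groups overlapped, with aldosterone replicate 1 between the vehicle rats. The difference of 0.29 had an interval from -0.32 to 0.90, and it was 0.017 without aldosterone replicate 2. Atp1b2, the beta subunit of glia and neurons, lay near the floor of the array at 2.20 and 2.54 in vehicle rats and 2.61 and 2.51 in aldosterone rats (row 7079070). For comparison, 6 measured markers of enteric neurons and glia averaged 1.97 to 2.33 on the 4 arrays. No fold is given for rows whose group means are not both 4 or more, since values near the floor compress differences.

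**Figure D2:**
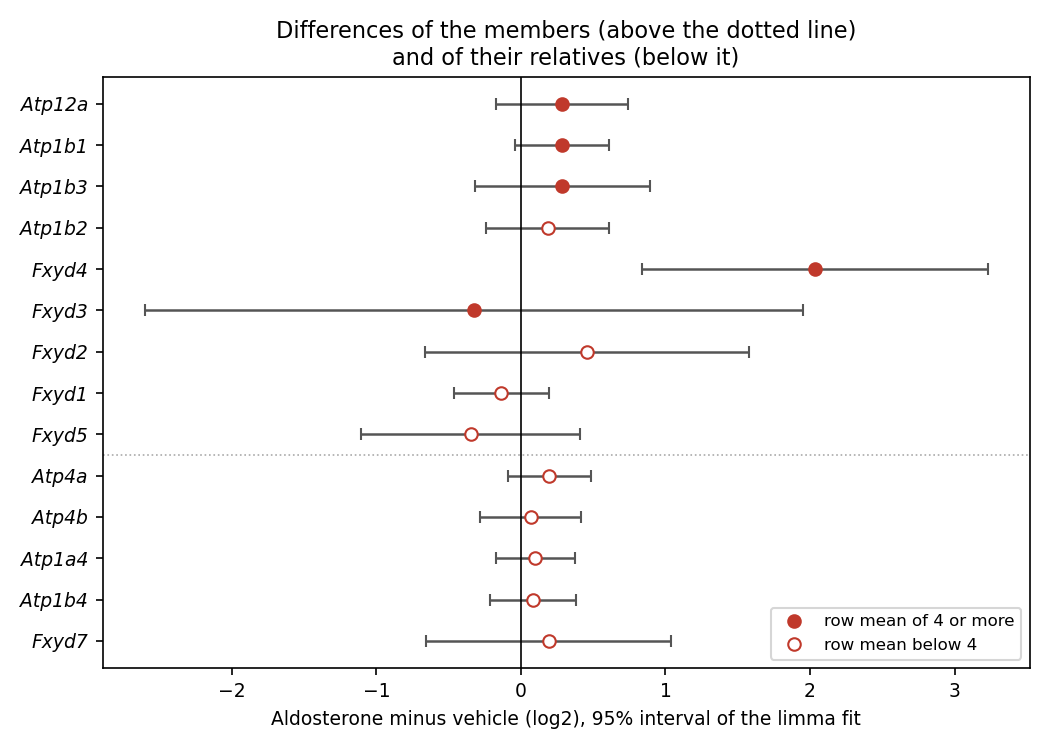
Difference between aldosterone and vehicle rats on the log2 scale for the 9 genes and 5 relatives, with 95% intervals of the limma fit. Filled points have a mean of 4 or more. The interval of Fxyd4, 0.83 to 3.23, lies above zero, and the other intervals include zero.

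The differences of the 5 FXYD genes had no common sign, with 2 positive and 3 negative. Fxyd3, which encodes the protein Mat8, differed most between rats of the same group. Its row (7049968) read 5.90 and 5.39 in vehicle rats and 4.17 and 6.47 in aldosterone rats, so that the aldosterone rats lay on either side of the vehicle rats. The difference of -0.32 had an interval from -2.60 to 1.95, and it changed sign to 0.83 without aldosterone replicate 1. The gap of 2.30 between the aldosterone rats was exceeded or matched by 29 of the 4815 rows with a mean of 4 or more, Fxyd3 included, and 99.4% of these rows had a smaller gap.

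Over the 4 rats Fxyd3 had a pattern close to that of 1 goblet cell marker, while others departed from it. Tff3, a trefoil peptide of goblet cell mucus, read 11.12 and 10.74 in vehicle rats and 9.44 and 11.30 in aldosterone rats. Likeness was measured as the Euclidean distance of log2 values, each gene centred on its own mean over the 4 arrays, among 728 genes with a mean of 4 or more and a range of at least 1. By this measure Tff3 was 2nd nearest to Fxyd3 (distance 0.401), between Rpl14, a ribosomal protein gene (0.333), and Ptprn2, a gene of secretory granules (0.432). This look at Fxyd3 was chosen after its values were seen. Agr2, a protein disulfide isomerase of mucus-secreting cells, read 7.89 and 7.91 against 7.69 and 8.52. It was likewise lowest in aldosterone replicate 1 and highest in aldosterone replicate 2, but its range was below 1 and it was not among the candidates. Zg16, a lectin of goblet cells, departed from the pattern, with 5.14 and 4.45 against 6.39 and 8.06, and was 662nd of the 728. Spink4, another listed goblet marker, read 1.77 and 1.86 against 1.91 and 1.96, near the floor, and was lowest in vehicle replicate 1. Of 8 goblet markers 4 were measured, 3 of them with a mean of 4 or more, and the list mean was 6.24 to 6.48 in vehicle rats and 6.36 and 7.46 in aldosterone rats. The part of goblet cells in the values of Fxyd3 was not tested, and in such bulk samples more cells of a type and more RNA per cell cannot be told apart.

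**Figure D3:**
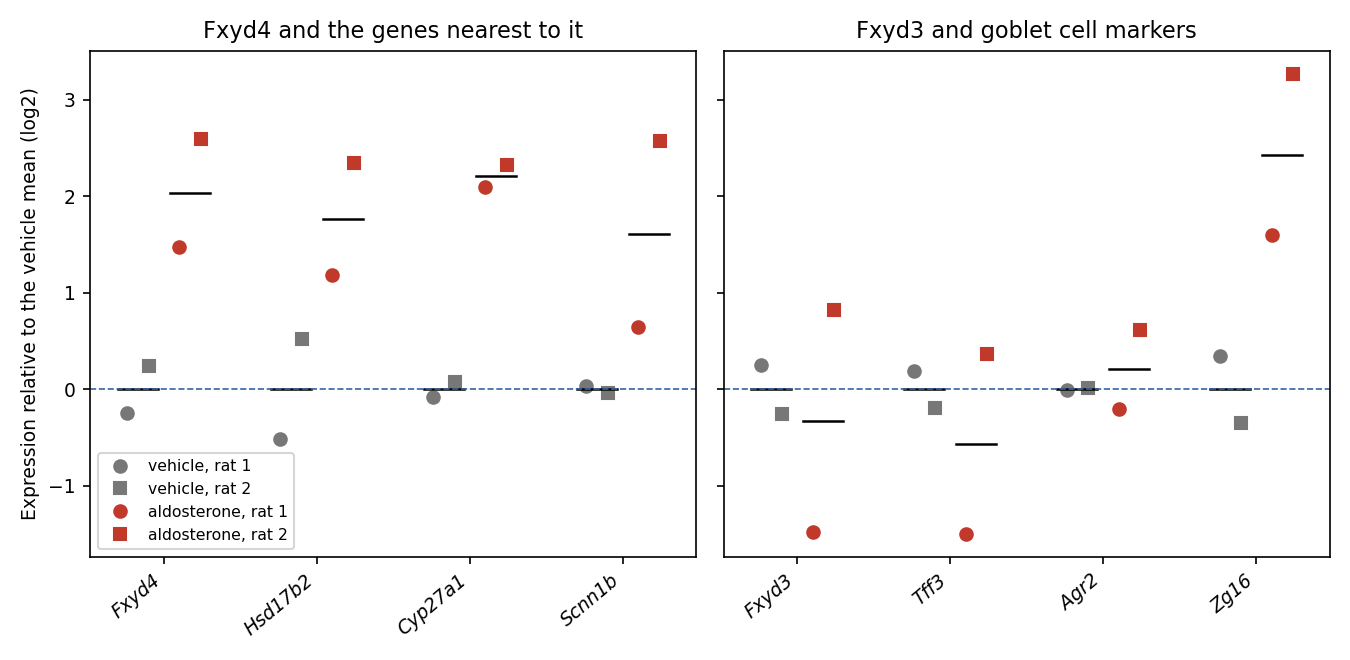
Log2 values relative to the mean of the vehicle rats, with symbols and bars as in the plot of the 9 genes by rat. The left panel shows Fxyd4 with the genes of most similar pattern, and the right panel Fxyd3 with goblet cell markers. Tff3 repeats the low value of Fxyd3 in aldosterone replicate 1, and Zg16 does not.

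The remaining FXYD genes read low. Fxyd2, the gamma subunit of the kidney pump, lay at 2.43 and 3.17 in vehicle rats and 2.82 and 3.69 in aldosterone rats (row 7335683). The groups overlapped, and the difference of 0.46 had an interval from -0.66 to 1.58. It was 0.024 without aldosterone replicate 2, 0.091 without vehicle replicate 1, 0.82 without vehicle replicate 2 and 0.89 without aldosterone replicate 1. Fxyd5, or dysadherin, a FXYD protein tied to cell adhesion, lay at 3.58 and 2.90 against 2.75 and 3.04 (row 7049945), with a difference of -0.35 and an interval from -1.10 to 0.41. The difference of Fxyd5 was -0.0090 without vehicle replicate 1, which held its highest value. The 5 measured T and B cell markers, 0 of them with a mean of 4 or more, averaged 2.46 and 2.18 in vehicle rats and 2.24 and 2.50 in aldosterone rats, and the 6 myeloid markers averaged 3.73 and 3.79 against 3.82 and 3.99. Neither list was highest in vehicle replicate 1. Within the T and B cell list the pan-leukocyte marker Ptprc was highest in vehicle replicate 1 (3.23 against 2.43 to 2.46 in the other rats). Cd8a (2.30 against 1.99 to 2.26) and Ms4a1 (2.03 against 1.80 to 2.02) were also highest there. Cd3d, a subunit of the T cell receptor complex, was lowest there (1.77 against 1.83 to 1.94). Cd79b was highest in aldosterone replicate 2 (3.82 against 2.86 to 2.98). The part of leukocytes in the Fxyd5 value was not tested. Fxyd1, or phospholemman, the pump regulator of heart and muscle, lay at 2.52 and 2.72 against 2.46 and 2.51 (row 7049957). Its groups did not overlap, but the nearest pair of rats differed by only -0.0123, at a level near the floor, where 6 smooth muscle markers averaged 2.45 to 2.60.

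In the RefSeq order of protein-coding genes, Fxyd5, Fxyd7, Fxyd1, Lgi4 and Fxyd3 follow each other on 1 chromosome. The differences along this run were -0.35, 0.19, -0.14, -0.0587 and -0.32. Fxyd2 lies beside Fxyd6, which had no row with that symbol alone. Fxyd4 lies apart from the other FXYD genes, and of its 3 neighbours on either side only Rasgef1a was measured, at 2.65 and 2.91 in vehicle rats and 2.85 and 2.87 in aldosterone rats.

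Measured against Atp1b1, Atp12a, Atp1b3 and Fxyd3 on the same array, Fxyd4 stood higher in the aldosterone rats than in the vehicle rats. The log2 value of Fxyd4 minus that of Atp1b1 was -3.50 and -2.87 in vehicle rats and -2.07 and -0.81 in aldosterone rats, a change of 1.75. Relative to Atp12a the change was also 1.75, relative to Atp1b3 it was 1.74 and relative to Fxyd3 it was 2.36. In each of these 4 pairs the aldosterone rats lay above the vehicle rats, with an exact permutation p = 0.333, the smallest possible. These are changes of a ratio and largely repeat the difference of Fxyd4, since the pump genes differed little between the groups. They do not compare the abundance of the transcripts, since probes of different genes differ in brightness. Fxyd4 ranked 16th in upward difference among the 4815 rows with a mean of 4 or more, while Atp1b3, Atp12a and Atp1b1 ranked 669th, 678th and 679th.

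**Figure D4:**
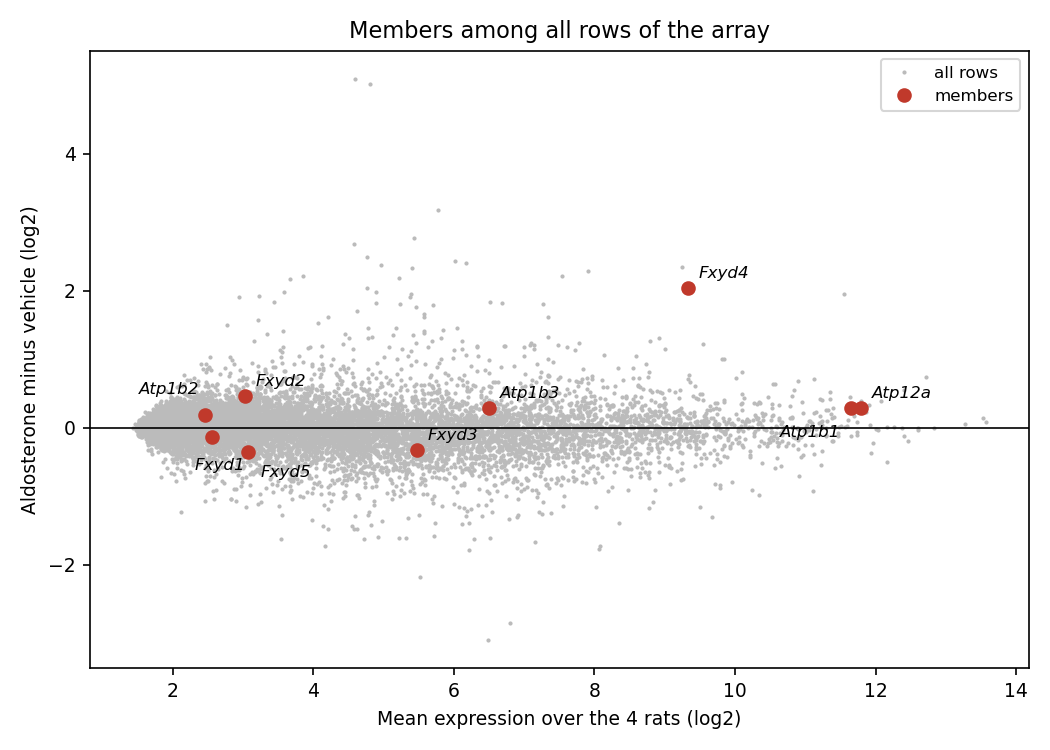
Difference between the groups against mean level, both on the log2 scale, for all 19403 rows (grey) and the 9 genes (red). Fxyd4 stands at a mean of 9.34 and a difference of 2.03, and the differences of the other 8 genes lie between -0.35 and 0.46.

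The genes whose pattern over the 4 arrays was nearest to that of Fxyd4 among 728 candidates were Hsd17b2, Cyp27a1 and Scnn1b. Hsd17b2, a dehydrogenase that inactivates sex steroids (distance 0.476), read 4.06 and 5.09 in vehicle rats and 5.76 and 6.92 in aldosterone rats. Cyp27a1, a mitochondrial sterol hydroxylase (distance 0.697), read 6.35 and 6.51 against 8.53 and 8.75. Scnn1b, the beta subunit of the epithelial sodium channel (distance 0.806), read 3.44 and 3.37 against 4.06 and 5.98. Fxyd4, Hsd17b2, Cyp27a1 and Scnn1b shared a higher value in aldosterone replicate 2 than in aldosterone replicate 1, with the smallest gap in Cyp27a1. This shared order is no separate result, since the genes were picked for their likeness to Fxyd4 over the same arrays. Aldosterone replicate 2 had the highest reading of the haemoglobin gene Hbb-b1, 9.79 against 5.06 to 5.91 in the other rats. The part of blood in the values of that array was not tested. The difference of Fxyd4 was 1.47 without that array and 2.59 without aldosterone replicate 1. The genes nearest to Atp1b1 among 729 candidates were Ttc27, Mrps18a and Vhl (distances 0.441, 0.498 and 0.502), and their differences of 0.55, 0.61 and 0.74 were all larger than that of Atp1b1, as the candidates had to span at least 1 on the log2 scale.

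Of 9 listed relatives of these genes 5 were measured, and 0 of them had a mean of 4 or more. Fxyd7 had a mean of 3.75, and the others were near the floor. Atp4a, the catalytic subunit of the gastric proton pump, read 2.24 and 2.36 against 2.48 and 2.51, and its beta subunit Atp4b read 1.97 and 1.90 against 1.89 and 2.12. Atp1a4, a pump subunit of sperm, read from 1.86 to 2.01, and Atp1b4, a beta-like protein of muscle, from 1.81 to 1.99. Fxyd7, a FXYD protein of the brain, read 3.25 and 4.07 against 3.77 and 3.93, and its groups overlapped.

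Genes of proteins that anchor or bind the sodium pump gave no call. Of 18 listed genes 14 were measured, 8 with a positive and 6 with a negative difference, and the median was 0.0159. No overlap was found in 2 of the 14 higher and 1 lower with aldosterone, near or below the 16.7% and 11.1% of all rows. In limma 0 of the 14 passed, as did 0% of all rows. At an unadjusted p under 0.05 there were 0, against 2.19% of all rows higher and 2.34% lower. Add3, an adducin of the membrane skeleton, was the lower one, at 7.58 and 6.87 against 6.81 and 6.44. Its difference of -0.60 had an interval from -1.41 to 0.20. Ndrg2, a gene known to respond to aldosterone in kidney, read 9.23 and 9.03 against 9.50 and 9.22. Pxk, which encodes a protein that binds the pump's beta subunit, read 5.63 and 5.04 against 4.78 and 5.18, and Nkain4, whose family binds the same subunit, lay at the floor from 1.91 to 2.13.

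Other P-type pumps, which move calcium, copper, polyamines or lipids, gave no call. Of 28 listed, 18 were measured, 9 higher and 9 lower, with a median of 0.0084. The limma threshold was passed by 0 of them and by 0% of all rows. An unadjusted p under 0.05 was reached by 0, against 2.19% of all rows higher and 2.34% lower. Separate groups were found in 3 of the 18 higher, the same share as the 16.7% of all rows, and in 3 lower, against 11.1% of all rows. Atp2a2, the calcium pump of the endoplasmic reticulum, read 8.02 and 7.71 against 8.23 and 8.06, a difference of 0.28 (interval -0.14 to 0.71). Atp2a3, its relative, read 9.46 and 9.38 against 9.08 and 9.36. Atp13a1, a pump of the endoplasmic reticulum that removes mistargeted protein segments, read 5.03 and 4.80 against 4.49 and 4.65 (difference -0.35, interval -0.73 to 0.031). Atp10a, a lipid flippase, read from 2.22 to 2.42, near the floor.

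The vacuolar proton pump, which acidifies endosomes and lysosomes and is unrelated to Atp12a, gave no call either. Of 15 listed genes 12 were measured, 9 higher and 3 lower, with a median of 0.16. The groups did not overlap in 3 of the 12 higher and 1 lower, against 16.7% and 11.1% of all rows. Atp6v0e1 and Atp6v1f, 2 of the 12, stood higher at an unadjusted p under 0.05 and 0 lower, against 2.19% and 2.34% of all rows. With adjustment over all rows 0 passed, as did 0% of all rows. Atp6v1f, a small subunit of the cytosolic domain, read 7.49 and 7.72 against 8.22 and 9.11 (2.09-fold, interval of the difference 0.13 to 1.99, adjusted p = 1.00 in limma). Atp6v0e1, a small subunit of the membrane domain, read 5.15 and 5.12 against 5.54 and 6.02 (1.56-fold, adjusted p = 0.991). Atp6v0b, another subunit of the membrane domain, read 5.90 and 5.52 against 6.01 and 5.91. Atp6v0c, the proton-carrying ring subunit, read 10.54 and 10.53 against 10.10 and 10.51.

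Transport partners of the pump in the distal colon were listed with earlier results of these data known. Of 20 genes 18 were measured, 16 of them higher and 2 lower, with a median of 0.40. Aldosterone and vehicle rats were separate in 10 of the 18 higher and 0 lower, against 16.7% and 11.1% of all rows. At an unadjusted p under 0.05, 6 of the 18 stood higher and 0 lower, against 2.19% and 2.34% of all rows. None passed with the constant prior, as did 0% of all rows. With the level-dependent prior, which made too many false calls in simulated data, 3 of the 18 passed, against 0.108% of all rows. These were Scnn1g, the gamma subunit of the epithelial sodium channel, the kinase gene Sgk1 and Slc12a2, which encodes the cotransporter NKCC1. Sgk1 read 10.51 and 10.64 against 12.54 and 12.52, a difference of 1.95 with an interval from 1.66 to 2.24. The differences of Fxyd4 and Sgk1 were similar in size, but the aldosterone rats were 1.12 apart in Fxyd4 and 0.0175 apart in Sgk1. Scnn1g read 2.05 and 2.03 against 6.65 and 7.61. Its adjusted p in limma was 6.95e-05 with the level-dependent prior and 0.402 with the constant prior. Slc12a2 read 4.66 and 4.17 against 6.33 and 6.33 (adjusted p = 0.0494 with the level-dependent prior), and Hsd11b2, which inactivates glucocorticoids, read 3.90 and 4.44 against 5.58 and 5.41.

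The arrays carried the markers of the labelled cells. All 7 measured surface colonocyte markers had a mean of 4 or more, with list means from 10.46 to 11.03 on the 4 arrays. Of 6 smooth muscle, 6 enteroendocrine, 6 crypt or dividing cell, 5 fibroblast and 2 endothelial markers measured, 0 had a mean of 4 or more. Among 6 myeloid markers only Cd14 did. Goblet cell markers were present as well, with 3 of 4 measured (Tff3, Agr2 and Zg16) at a mean of 4 or more. The median of all rows was 2.22 to 2.44 on the 4 arrays, and 65.0% of rows had a mean below 3.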

How the data were processed

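The deposited values are log2 expression values, 1 per row and array, where a row gathers the probes of 1 transcript cluster. The submitters' processing notes name Affymetrix Expression Console, Partek and RMA, a method that corrects background, normalizes between arrays and summarises probes, without versions. The log2 scale was read from the range, 1.36 to 13.7. The genome build is not given in the sources used here. Of 19403 rows, 13327 had 1 gene symbol in the platform annotation, 620 several and 5456 none here. Entrez IDs were checked against RefSeq (GRCr8), where 95 were absent and 0 symbols changed.

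Aldosterone and vehicle were compared with limma 3.58.1 under R 4.3.3 (eBayes after lmFit, constant prior variance, treatment as the only term, two-sided), fitted on all rows with Benjamini-Hochberg adjustment and a threshold of 0.05. The fits were checked on simulated data. There the level-dependent prior made more false calls than its threshold allows. How often the constant prior would miss a difference with the spread of Fxyd4 was not tested. Intervals are 95% intervals of the moderated fit. Arrays of a group are separate rats per the labels, and their number limits the precision. Tables and plots used Python 3.11.15, pandas 2.3.3 and matplotlib 3.10.9.

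Alternatives were other scalings, filters and priors, a replicate block and leaving out each array. Named besides the 9 genes are up to 4 genes per list with the smallest unadjusted p, and the 3 genes nearest in pattern to the 2 of the 9 with the smallest p and a mean of 4 or more. Other genes were named after their values were seen (Tff3, Agr2, Zg16, Spink4, Rpl14, Ptprn2, Ptprc, Cd3d, Cd8a, Ms4a1, Cd79b, Hbb-b1, Atp4b, the neighbours of the FXYD genes and those under other observations). The members, lists and tests were chosen with earlier results of these data known.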

Additional observations from a re-analysis of the deposited data

How the results depend on the processing

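The direction held for 8 of the 9 genes under every alternative run, and none of the 9 passed the threshold under any. Without aldosterone replicate 1 Fxyd3 turned to 0.83, and its differences with 1 array left out ran from -1.48 to 0.83. In these fits the lone array of a group is assumed to vary like the other group. The differences of Fxyd4 ran from 1.47 to 2.59, and its adjusted p over all alternatives from 0.0525 to 1.00. The count of rows past the threshold, 0 in the main fit, was 21 with the intensity trend, 1 with rows below the median of row means left out, 12 with rows of a mean below 4 left out, 12 with that filter and the trend, and 6 with the trend and the replicate block. The median difference of the 9 genes, 0.28, ran from 0.0245 to 0.21 with 1 array left out (0.0911 without vehicle replicate 1, 0.0245 without aldosterone replicate 2). Centring the arrays on their medians gave 0.23 and quantile normalization 0.21. The replicate block left every difference as it was, and the adjusted p of Fxyd4 became 0.629 with the replicate block and 0.0603 with block and trend. Same-numbered arrays deviated together weakly (correlation over rows 0.148, and 0.0934 for rows with a mean of 4 or more), and the labels tie nothing to the numbers. Rows near the floor limit Atp1b2, Fxyd1, Fxyd2 and Fxyd5, whose means lay between 2.46 and 3.07.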

Other observations

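Fxyd3 was 1 of 29 rows with a mean of 4 or more in which the aldosterone rats differed by as much as or more than in Fxyd3, 16 of them higher in replicate 2 and 13 in replicate 1. These genes were looked up after their values were seen and were not tested. Slc9a3, the apical sodium-proton exchanger NHE3, had the widest gap, at 8.39 in aldosterone replicate 1 and 3.44 in replicate 2, against 2.48 and 3.99 in the vehicle rats. Msmo1, Idi1 and Cyp51, genes of cholesterol synthesis, also read higher in replicate 1 (8.53, 6.76 and 8.72) than in replicate 2 (5.91, 3.70 and 6.24). Aldh1a1 and Retsat, genes of retinoid metabolism, read higher in replicate 2 (9.69 and 10.28) than in replicate 1 (6.35 and 7.57). Their vehicle values were 8.53 and 9.33 for Aldh1a1 and 9.59 and 10.57 for Retsat.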
